A study of Rattus norvegicus with 13 samples.

Results

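The numbered zinc finger genes of rat were described here in mammary epithelial cells at 2 ages. Members were all records whose symbol is one of the stems Zfp, Znf, Zbtb, Zscan or Zkscan followed by a number alone, and this gave 272 of the 14790 genes in the table. By stem, 32 members were Zbtb genes, 11 were Zscan or Zkscan genes (8 Zscan and 3 Zkscan), and 229 were Zfp or Znf genes (224 Zfp and 5 Znf). The rule reads symbols only and used no measured value. It thus counts BTB or SCAN genes with a Zfp symbol, such as Zfp295 and Zfp397, as Zfp. The rats were of the Wistar-Furth strain, which is susceptible to mammary cancer, and none of the groups carried an engineered allele or a carcinogen treatment in the labels. Within the window of susceptibility (WOS) there were 6 rats at 6 weeks of age, and outside WOS there were 7 rats at 10 weeks, each with a library of its own. Abdominal and inguinal glands without lymph nodes were minced and digested with collagenase, and the labels describe ductal fragments held back by a nylon filter. The study's methods describe collection of the RNA samples by centrifugation and name stromal fibroblasts and immune cells as also present.

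Most of these genes encode C2H2 zinc finger proteins, in which a row of fingers, each folded around a zinc ion, reads the bases of DNA. A second domain sets what happens at the bound site. Many Zfp proteins carry a KRAB domain, which recruits the corepressor Trim28 and the methyltransferase Setdb1 and is best known for silencing transposable elements. The BTB domain of Zbtb proteins makes them pair and recruits corepressors such as Ncor1, and the SCAN domain of Zscan and Zkscan proteins is a pairing domain. A few Zfp symbols name other proteins, such as Zfp36 (tristetraprolin), whose fingers bind AU-rich messenger RNAs and speed their decay. Genes of the KRAB group often lie in clusters of similar copies, so reads can be shared between paralogs and single values within such clusters are uncertain.

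Levels are normalized counts, that is RSEM count estimates that the authors scaled per library and rounded to whole numbers. Their totals per rat lay between 13261906 and 15659533 for the younger rats and between 13766735 and 15402814 for the older ones. Each gene was tested with limma on log2(normalized count + 1), with p-values adjusted over all genes, and a gene with an adjusted p under 0.05 is called DE. Every log2 fold change has 6 weeks in the numerator, which makes it negative where the level was higher outside WOS. Because of the added 1, low genes appear to change less than they did. The rats also differed along a component of the variation left within the ages, so it is unrelated to age by construction. This component set apart 8 rats (4 of each age) from 5 rats (75 and 80 at 6 weeks, and 78, 81 and 83 at 10 weeks). It took up 28.3% of the variation left within the ages. When each rat was given a sample quality weight, those 5 rats had the lowest weights, from 0.356 (rat 80) to 0.662 (rat 83). Weights in the 8 rats ran from 0.721 (rat 86) to 3.61 (rat 72). What lies behind the difference between these sets of rats was not tested.

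The members were mostly higher outside WOS. Of the 272 members, 34 were DE and higher outside WOS (12.5%), where 7.39% of all genes were. Only 8 members were DE and higher within WOS (2.94%), where 8.71% of all genes were. Together 42 members were DE (15.4%), against 16.1% of all genes. The median log2 fold change was -0.147 over members and 0.028 over all genes. It was below 0 for 188 members (69.1%), against 47.5% of all genes. Among the 230 members that were not DE, 154 were also below 0, with a median of -0.12. All 6 rats within WOS lay below all 7 rats outside WOS in 11 members, or 4.04% of them, where 2.78% of all genes did so. The reverse held in 1 member, Zfp334, or 0.368% of them, where 3.29% of all genes did so.

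The count of DE members, like that of all genes, depended on single rats. It fell from 34 to between 15 and 19 for the higher outside WOS direction without rat 70 (15), rat 84 (16), rat 72 (18), rat 74 (18), rat 71 (19) or rat 87 (19). The whole table fell alongside, from 1093 to between 608 and 787 genes in this direction, and in these fits 5.51% to 6.99% of members were called against 4.11% to 5.32% of all genes. The count for the other direction fell from 8 to 5 without rat 70, 84 or 87. In the 8 rats alone, 51 members (18.8%) were DE and higher outside WOS and 11 (4.04%) higher within WOS, against 10.1% and 13.4% of all genes in the same fit. In the other 5 rats alone the same limma test called 0 members, and 0 genes of the whole table, while 25 members had an unadjusted p under 0.05, 18 of them higher outside WOS. All 42 DE members had the same direction in both sets of rats. They were called from these same rats, so this agreement follows in part from how they were chosen. Of the 42, 18 stayed DE in each of the 13 fits that left out a rat. They were 13 of the 34 higher outside WOS and 5 of the 8 higher within WOS. The matching share of all DE genes is not given. When libraries were scaled to equal totals, 20 members stayed DE and higher outside WOS, all of them among the 34. They were 7.35% of members, against 5.22% of all genes in the same fit.

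**Figure D1:**
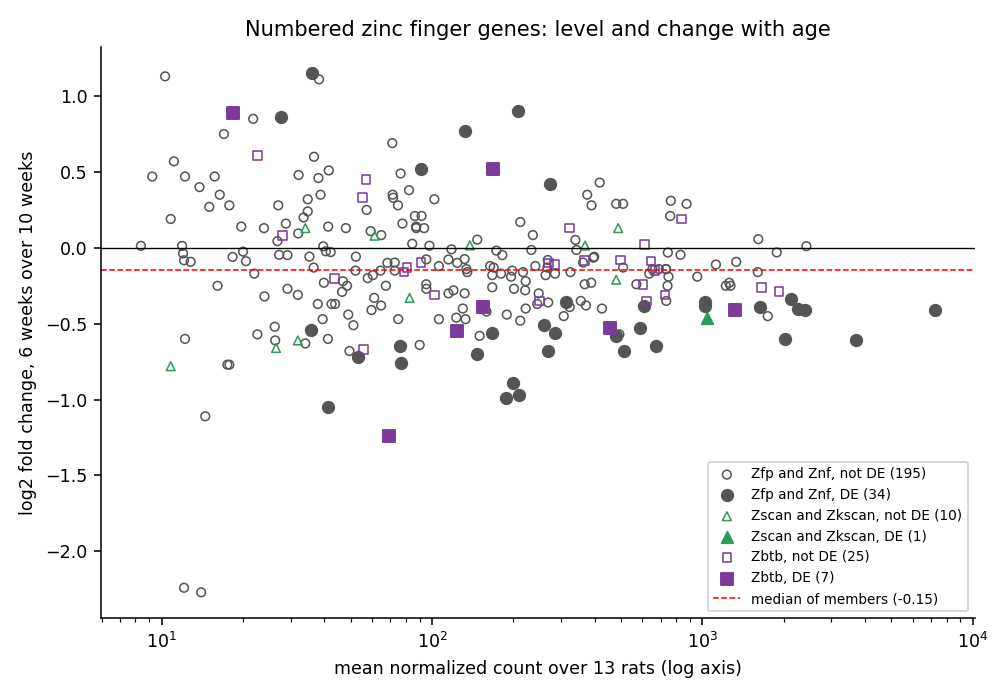
Each of the 272 members is plotted by its mean normalized count over the 13 rats (log axis) and its log2 fold change, 6 weeks over 10 weeks, with the 3 groups of symbols as 3 markers and DE members filled. Most markers lie below 0, the dashed line is the members' median of -0.15, and every DE member with a mean over 1000 is below 0.

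Of the 32 Zbtb genes, 5 were DE and higher outside WOS (15.6%, against 7.39% of all genes). A further 2 were DE and higher within WOS (6.25%, against 8.71% of all genes). Of the 32, 23 had a log2 fold change below 0, with a median of -0.144. The DE count of 7 fell to 3 without rat 71, 84 or 87 and to 4 without rat 70, 72 or 74. It was 4 with libraries scaled to equal totals, where Zbtb9, Zbtb11 and Zbtb46 were no longer DE.

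Zbtb16, also known as PLZF, is a transcription factor that glucocorticoids and progesterone are known to induce. Its normalized counts ran from 19 to 63 within WOS (median 34) and from 46 to 211 outside WOS (median 80). It had the largest fold change among the DE members that were higher outside WOS, at -1.24 (SE 0.36, adjusted p = 0.0335), that is 2.36-fold higher outside WOS. The ages overlapped, since rats 70 and 80 at 6 weeks lay above rat 72, the lowest at 10 weeks. Rat 78 alone reached 211, where the next rat was at 112. The call held in 7 of the 13 fits that left out a rat.

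Zbtb39 was at 318 to 425 within WOS (median 374) and at 458 to 605 outside WOS (median 548). No rat of one age fell into the range of the other, and the log2 fold change was -0.53 (SE 0.10, adjusted p = 0.00545), held in all 13 fits without a rat. Zbtb11 was the most abundant DE member of the BTB group by symbol, with 953 to 1167 within WOS (median 1140) and 1273 to 1876 outside WOS (median 1398). The ages did not overlap there either. Its log2 fold change was -0.41 (SE 0.12, adjusted p = 0.0347), a call that 7 of the 13 fits kept.

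Zbtb9 ran from 76 to 117 within WOS (median 100) and from 106 to 209 outside WOS (median 142). Rat 84 at 6 weeks was the only one above the lowest rat outside WOS, and the log2 fold change was -0.55 (SE 0.15, adjusted p = 0.0257), DE in 11 of 13 fits. Zbtb46, which marks classical dendritic cells and is also made by endothelium, ran from 103 to 152 within WOS (median 134) and from 150 to 208 outside WOS (median 178). Here too 1 rat within WOS, rat 75, reached the range outside WOS, and the log2 fold change was -0.39 (SE 0.12, adjusted p = 0.0379), DE in 6 of 13 fits.

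The pair of Zbtb genes that were higher within WOS were Zbtb5, known as a repressor of the cell cycle inhibitor Cdkn1a, and Zbtb12. Zbtb5 ran from 175 to 241 within WOS (median 190) and from 116 to 192 outside WOS (median 132), with a log2 fold change of 0.52 (SE 0.13, adjusted p = 0.0182). Only rat 78 outside WOS, at 192, lay within the range of the younger rats. The log2 fold change was 0.72 in the 8 rats and 0.22 in the 5 rats. Zbtb12 was low, with 17 to 36 within WOS (median 22.5) and 6 to 20 outside WOS (median 12), and its log2 fold change was 0.89 (SE 0.27, adjusted p = 0.0421). Its ages overlapped, and 4 of the 13 fits kept the call.

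**Figure D2:**
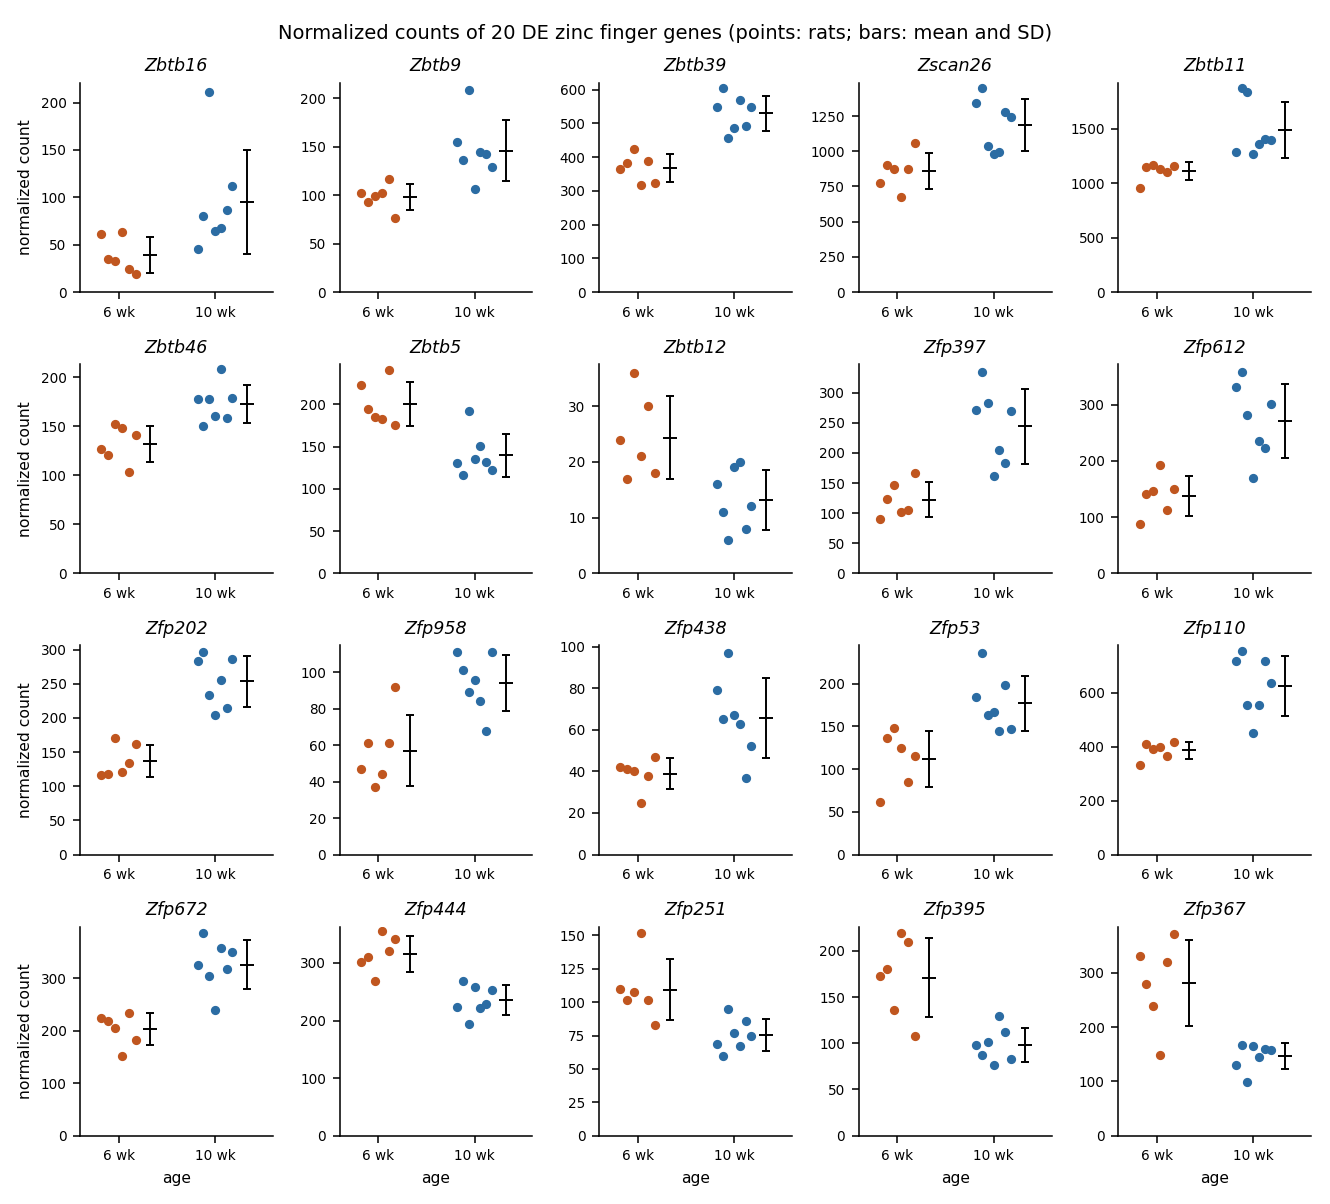
Normalized counts (vertical axes from 0) of 20 DE members in every rat, 6 weeks in orange and 10 weeks in blue, with the mean and SD of each age in black beside the points. Zbtb39, Zfp202, Zfp110, Zfp672 and Zbtb11 show no overlap between the ages, while Zbtb16 shows 1 rat outside WOS far above the others.

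Among the 11 Zscan and Zkscan genes, 1 was DE (9.09%, against 16.1% of all genes). Zscan26 ran from 675 to 1058 within WOS (median 876) and from 978 to 1446 outside WOS (median 1244), with a log2 fold change of -0.46 (SE 0.13, adjusted p = 0.0338). Rat 86 within WOS lay above 3 rats outside WOS, namely 78, 81 and 83. The call held in 5 of 13 fits and was lost without rat 70, 71, 72, 74, 80, 84, 85 or 87. The group's median of -0.206 came from its low members, and with only members of a mean of at least 50 it was 0.02, so no direction is given for the group. Zscan2, Zscan29 and Zscan18 had values of -0.78, -0.66 and -0.61 at means of 10.8, 26.5 and 31.9 and were not DE.

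The 229 Zfp and Znf genes held 28 DE members that were higher outside WOS (12.2%) and 6 that were higher within WOS (2.62%). Of all genes, 7.39% and 8.71% were. The median of the 229 was -0.145, with 159 values below 0. The DE count of 34 fell to 16 without rat 70, to 18 without rat 84, to 20 without rat 72 or 74 and to 21 without rat 87. Zfp397, which carries a SCAN domain, ran from 90 to 166 within WOS (median 114) and from 161 to 335 outside WOS (median 270), with a log2 fold change of -0.99 (SE 0.20, adjusted p = 0.00572). Rat 86 alone within WOS passed the lowest rat outside WOS, rat 81.

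Zfp612 ran from 87 to 192 within WOS (median 144) and from 170 to 358 outside WOS (median 281), a log2 fold change of -0.97 (SE 0.21, adjusted p = 0.00788). Rat 80 within WOS lay above rat 81 outside WOS. The difference was -1.31 in the 8 rats and -0.42 in the 5 rats. Zfp202, known as a repressor of genes of lipid metabolism, ran from 117 to 170 within WOS (median 128) and from 204 to 297 outside WOS (median 256). Its ages were fully apart, with a log2 fold change of -0.89 (SE 0.13, adjusted p = 0.0011).

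Zfp110, also called NRIF, is a partner of the neurotrophin receptor Ngfr. It ran from 332 to 418 within WOS (median 394) and from 452 to 754 outside WOS (median 636), with no overlap and a log2 fold change of -0.68 (SE 0.13, adjusted p = 0.00453). Zfp672 ran from 152 to 234 within WOS (median 212) and from 240 to 387 outside WOS (median 325). It also had no overlap, with a log2 fold change of -0.68 (SE 0.13, adjusted p = 0.00559).

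Zfp958, Zfp53 and Zfp438 changed by a similar size with more overlap. Zfp958 ran from 37 to 92 within WOS (median 54) and from 68 to 111 outside WOS (median 96), with a log2 fold change of -0.76 (SE 0.20, adjusted p = 0.0206). Zfp53 ran from 61 to 148 within WOS (median 120) and from 145 to 236 outside WOS (median 167), with a log2 fold change of -0.70 (SE 0.20, adjusted p = 0.034). In each of these, 1 rat within WOS reached the range outside WOS, rat 86 for Zfp958 and rat 75 for Zfp53. Zfp438 ran from 25 to 47 within WOS (median 40.5) and from 37 to 97 outside WOS (median 65), with a log2 fold change of -0.72 (SE 0.21, adjusted p = 0.0342), and only rat 80 lay below every rat outside WOS. The size of all 3 changes differed between the sets of rats, at -0.59 and -1.13 for Zfp958, -0.98 and -0.22 for Zfp53, and -0.41 and -1.21 for Zfp438 in the 8 and the 5 rats.

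The 8 Zfp genes above were picked for the largest change, so the abundant DE members given next had to change by less. Zfp295, the gene now named Zbtb21, so a BTB protein by domain, had 1587 ± 109 normalized counts within WOS (SD, n = 6) and 2398 ± 117 outside WOS (SD, n = 7). The highest rat within WOS was at 1795 and the lowest outside WOS at 2280, and the log2 fold change of -0.60 (SE 0.082, adjusted p = 0.000545) had the smallest adjusted p of all members. Zfp36, an immediate-early gene of messenger RNA decay, ran from 2472 to 3365 within WOS (median 2696) and from 3646 to 6348 outside WOS (median 3973), again without overlap. Its log2 fold change was -0.61 (SE 0.15, adjusted p = 0.0145). Zfp655 was the most abundant member of all, at 6178 ± 947 within WOS (SD, n = 6) and 8170 ± 1064 outside WOS (SD, n = 7). Its ages overlapped and its log2 fold change was -0.41 (SE 0.12, adjusted p = 0.0399).

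The other DE members that were higher outside WOS are given by their log2 fold change in limma. Zfp318, a nuclear protein known from the splicing of immunoglobulin D, was at -0.65, and like Zfp106 (-0.40), Zfp592 (-0.39) and Zfp263 (-0.36) it had no overlap between the ages. Zfp609, a partner of the cohesin loader Nipbl, was at -0.34, and Zfp638, an RNA and DNA binding protein tied to the silencing of foreign DNA, was at -0.41. Zfp593, which takes part in ribosome assembly, was at -0.56, and Zfp259 (Zpr1) was at -0.38. Zfp131, a BTB protein by domain, was at -0.38. The remaining members of this group were Zfp872 (-1.05), Zfp566 (-0.65), Zfp26 (-0.58), Zfp933 (-0.56), Zfp865 (-0.54), Zfp689 (-0.53), Zfp347 (-0.51) and Zfp800 (-0.36). Zfp872 differed most between the sets of rats, at -1.55 in the 8 rats and -0.13 in the 5 rats.

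**Figure D3:**
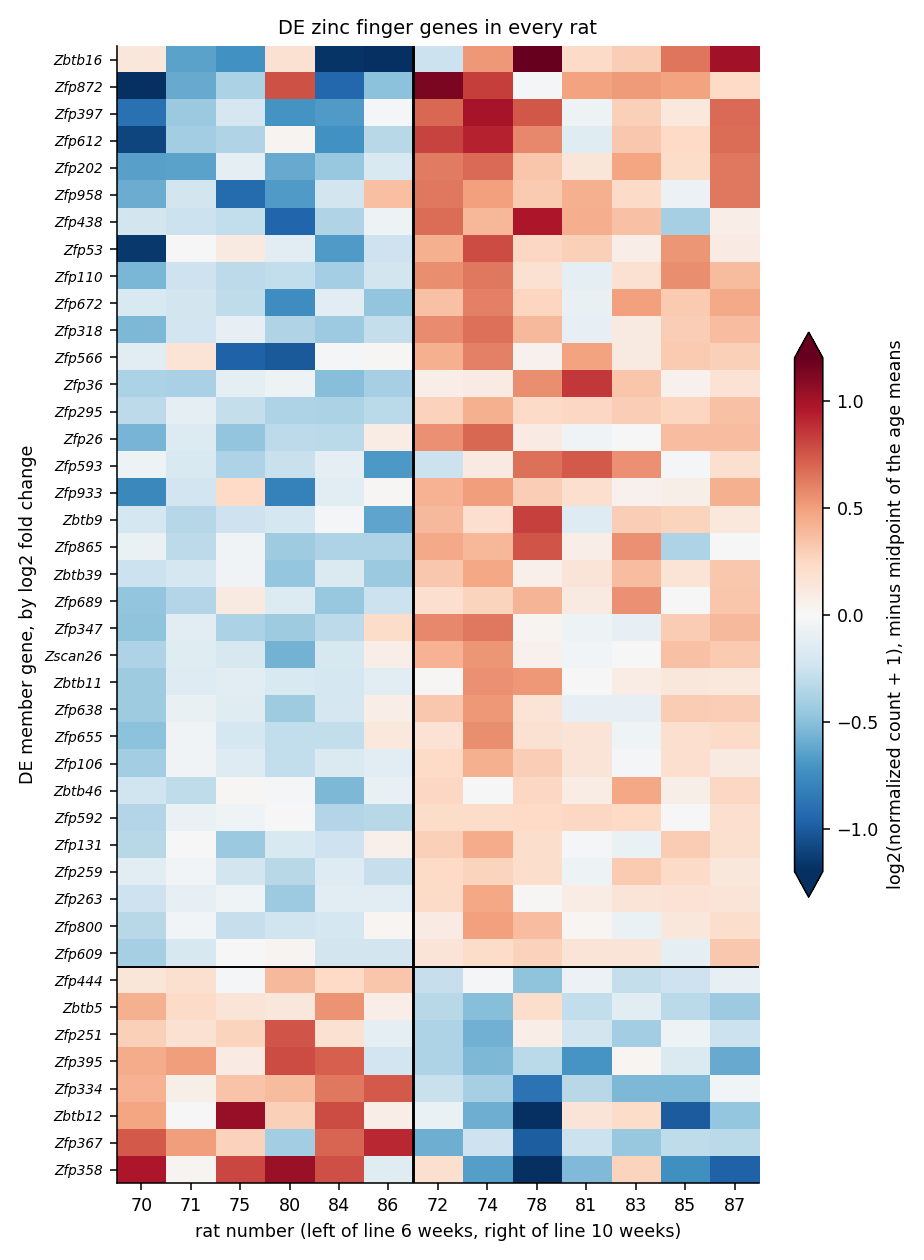
Rows are the 42 DE members ordered by log2 fold change and columns the 13 rats, 6 weeks left and 10 weeks right of the vertical line, with log2(normalized count + 1) shown relative to the midpoint of the means of the ages (colours are capped at 1.2 on either side). The 34 rows above the horizontal line are mostly blue at 6 weeks and red at 10 weeks, the 8 rows below it the reverse, and rats 72 and 74 hold many of the deepest red cells.

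The Zfp genes that were higher within WOS numbered 6. Zfp367 ran from 148 to 371 within WOS (median 300) and from 99 to 166 outside WOS (median 158), with a log2 fold change of 0.90 (SE 0.20, adjusted p = 0.0115). Rat 80, at 148, was the only rat within WOS among the older rats. The difference was 1.07 in the 8 rats and 0.50 in the 5 rats, and it was DE in all 13 fits. Zfp395, a gene known to respond to low oxygen, ran from 108 to 219 within WOS (median 176) and from 77 to 129 outside WOS (median 98). Only rat 86 within WOS reached down into the range of the older rats, and the log2 fold change was 0.77 (SE 0.18, adjusted p = 0.0127).

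Zfp444, a SCAN protein, ran from 268 to 355 within WOS (median 315) and from 194 to 268 outside WOS (median 228). The ages met at a single value, 268, and the log2 fold change was 0.42 (SE 0.10, adjusted p = 0.0173). Zfp251 ran from 83 to 152 within WOS (median 105) and from 60 to 95 outside WOS (median 75), with a log2 fold change of 0.52 (SE 0.15, adjusted p = 0.0299) and a call in 7 of 13 fits. Zfp334 was the only member whose rats within WOS all lay above those outside WOS, at 36.7 ± 6.06 (SD, n = 6) against 19.9 ± 3.76 (SD, n = 7), with a log2 fold change of 0.86 and an adjusted p of 0.00228 in limma. Zfp358 had 51.0 ± 16.1 (SD, n = 6) against 23.3 ± 10.8 (SD, n = 7), a log2 fold change of 1.15 and an adjusted p of 0.0248 in limma. Both of these are low, and 4 of the 8 members higher within WOS had a mean under 100, against 6 of the 34 higher outside WOS.

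Promoter windows of 250 bases before to 50 after the start were at hand from RefSeq (build GRCr8) for 223 of the members. They are shown for the DE members that hold 1 of the motifs searched, so that the letters can be read beside the values. An E2F-type motif (TTTCCCGC or TTTGGCGC on either strand, each being the core read by cell cycle E2F factors) was in 11 of 223 member promoters (4.93%), against 1.94% of the promoters of 18999 protein-coding genes and 1.53% of all 27457. The motif was in 2 of the 6 promoters of members higher within WOS, those of Zfp367 and Zfp444, in 0 of 29 promoters of members higher outside WOS and in 9 of 188 of members that were not DE. These numbers are small and were not tested. In the windows below the motif is in capitals, read along the strand of the gene.
Zfp367, chr17:970646-970945, plus strand: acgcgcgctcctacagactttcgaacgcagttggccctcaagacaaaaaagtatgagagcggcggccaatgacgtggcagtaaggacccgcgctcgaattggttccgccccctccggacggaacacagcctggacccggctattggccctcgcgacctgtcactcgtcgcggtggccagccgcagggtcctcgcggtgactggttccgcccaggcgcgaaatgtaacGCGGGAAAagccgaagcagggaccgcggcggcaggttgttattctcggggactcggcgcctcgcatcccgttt
Zfp444, chr1:76761401-76761700, minus strand: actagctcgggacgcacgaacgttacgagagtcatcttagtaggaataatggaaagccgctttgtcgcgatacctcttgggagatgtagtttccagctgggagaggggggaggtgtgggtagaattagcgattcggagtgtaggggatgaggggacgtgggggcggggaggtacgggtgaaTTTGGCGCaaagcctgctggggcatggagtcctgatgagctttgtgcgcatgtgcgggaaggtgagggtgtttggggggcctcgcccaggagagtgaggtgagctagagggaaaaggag

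The ETS-type motif CCGGAAGT, common in promoters of widely expressed genes and searched on either strand, was in 26 of 223 member promoters (11.7%), against 4.99% of protein-coding promoters. It was in 3 of 29 promoters of members higher outside WOS (10.3%), in 0 of 6 of members higher within WOS and in 23 of 188 of members that were not DE (12.2%), so its share was alike in the first and the last of these. The 3 windows are those of Zfp612, Zfp655 and Zfp263, with the motif in capitals. The median GC content was 57.7% in member promoters and 55.3% in those of protein-coding genes, and the median number of CpG pairs per window was 18 and 12.
Zfp612, chr19:54963193-54963492, plus strand: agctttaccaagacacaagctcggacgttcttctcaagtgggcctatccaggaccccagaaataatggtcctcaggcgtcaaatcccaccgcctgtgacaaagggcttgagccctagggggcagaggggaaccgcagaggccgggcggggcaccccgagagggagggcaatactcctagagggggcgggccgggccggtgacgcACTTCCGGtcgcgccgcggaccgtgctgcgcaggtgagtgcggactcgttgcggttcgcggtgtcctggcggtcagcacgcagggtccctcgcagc
Zfp655, chr12:14488240-14488539, minus strand: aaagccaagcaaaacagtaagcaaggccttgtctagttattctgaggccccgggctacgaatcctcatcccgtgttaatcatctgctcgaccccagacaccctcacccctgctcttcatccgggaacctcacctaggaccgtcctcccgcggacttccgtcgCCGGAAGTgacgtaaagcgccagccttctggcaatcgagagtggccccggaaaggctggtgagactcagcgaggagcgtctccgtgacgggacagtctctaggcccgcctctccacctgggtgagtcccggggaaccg
Zfp263, chr10:12277538-12277837, minus strand: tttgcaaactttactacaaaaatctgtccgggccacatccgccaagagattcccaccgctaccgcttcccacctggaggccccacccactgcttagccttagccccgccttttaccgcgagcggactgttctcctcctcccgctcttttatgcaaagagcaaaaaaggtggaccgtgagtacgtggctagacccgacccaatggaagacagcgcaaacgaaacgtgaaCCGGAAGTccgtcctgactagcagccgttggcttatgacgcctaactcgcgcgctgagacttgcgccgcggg

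The share of members that were DE and higher outside WOS was larger at higher levels, as it was for all genes. Of the 23 members with a mean of at least 1000 normalized counts, 11 were DE and higher outside WOS (47.8%) and 0 higher within WOS, where 16.5% and 4.91% of all 2362 genes at this level were. The 11 were Zfp655, Zfp36, Zfp638, Zfp106, Zfp609, Zfp295, Zfp592, Zbtb11, Zscan26, Zfp131 and Zfp800. Their count fell to 4 without rat 70, 71, 74, 84 or 87, to 5 without rat 72 or 78, to 6 without rat 80 or 85 and to 7 without rat 75. It was 5 with libraries scaled to equal totals. The shares of all genes at this level are not given for these other fits. The median log2 fold change at this level was -0.34 for members and -0.127 for all genes. Among 91 members between 100 and 500 counts, 14.3% were DE and higher outside WOS, against 6.63% of all genes there, and among 80 members between 10 and 50 counts the shares were 2.5% and 3.59%. The members' shares for higher within WOS were below those of all genes in each band of 10 or more.

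**Figure D4:**
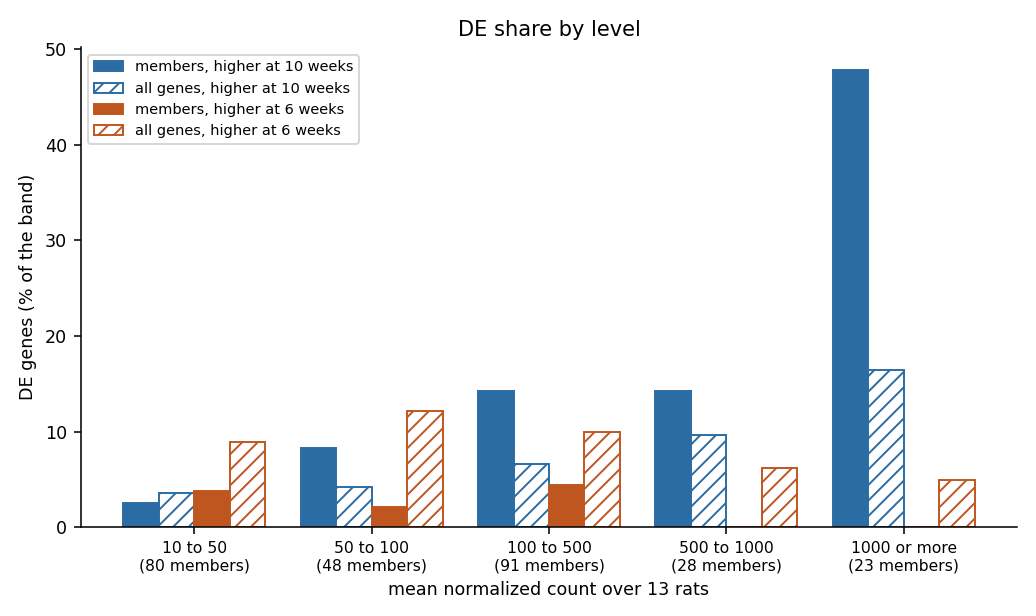
Bars give the percentage of genes that were DE in each band of mean normalized count, filled for members and hatched for all genes, blue for higher at 10 weeks and orange for higher at 6 weeks. The filled blue bar reaches 47.8% in the highest band, against 16.5% for all genes, and there is no filled orange bar above 500 counts.

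Well known members that were not DE show how the family varied where no call was made. Zfp871 was at 889 ± 138 within WOS (SD, n = 6) and 1015 ± 130 outside WOS (SD, n = 7), a log2 fold change of -0.19 that did not pass in limma (adjusted p = 0.306). Zfp703 and Zfp217, genes of breast cancer amplicons, were at -0.45 (adjusted p = 0.236) and -0.092 (adjusted p = 0.647). Zbtb20, a repressor abundant here, was at -0.29 (adjusted p = 0.124), and Zfp281, a regulator of pluripotency genes, at -0.25 (adjusted p = 0.113). Zfp57, which guards imprinted methylation, was at -0.25 with 21 to 64 counts within WOS and 33 to 75 outside WOS.

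Smaller values were seen for Zfp335 (-0.14), the promoter factor Zfp143 (-0.13), Zbtb1 (-0.087), Zbtb33 or Kaiso (-0.080), Zfp148 (-0.046), Zkscan1 (0.015), Zbtb38 (0.021), Zkscan3 (0.13) and Zbtb17 or Miz1 (0.13). Of these, only Zkscan3 kept the sign of its difference under every setting tried. Zbtb17 and Zfp335 differed between the sets of rats outside WOS. There, Zbtb17 was highest in rats 78 (549), 81 (515) and 83, and at 148 to 197 in the other 4 rats, and Zfp335 was at 1010 to 1116 in those 3 rats and at 523 to 631 in the other 4. Within WOS, Zfp335 was again higher in rats 75 (886) and 80 (856) than in the other 4 rats (414 to 758), while Zbtb17 was highest in rat 70 (444) of the 8 rats, next to rat 80 (441) and above rat 75 (365).

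Several large fold changes came from low counts. Of 8 members whose log2 fold change was over 1 in size, 3 were DE (Zbtb16, Zfp872 and Zfp358). The other 5 were Znf7 (-2.27), Zfp939 (-2.24), Zfp641 (-1.11), Zfp426 (1.11) and Zfp14 (1.13), with means of at most 38.2 normalized counts and at least 1 rat at 0 each. Zfp654 (-0.57, adjusted p = 0.0552) and Zfp51 (-0.58, adjusted p = 0.0609) in limma lay just outside the threshold.

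Members that lie side by side in the RefSeq gene order of rat (build GRCr8) were looked at in runs. Of 261 members matched once to a protein-coding gene, 76 lay next to another member, in 29 runs of up to 5 genes. Of these 76, 7 were DE and higher outside WOS (9.21%), against 26 of the other 185 (14.1%) and 7.39% of all genes. Higher within WOS were 2 of the 76 (2.63%) and 6 of the 185 (3.24%), against 8.71% of all genes. The medians of the 76 and the 185 were -0.188 and -0.143. These counts are small, and the contrast between the 76 and the 185 was not tested. A DE member was found in 9 runs, and each of the 9 held exactly 1. The run of Zfp397, Zscan30, Zfp35 and Zfp24 had values from -0.99 to -0.06, and that of Zfp54, Zfp51, Zfp53 and Zfp52 from -0.70 to -0.02, all 8 below 0. In the run of Zfp28, Zfp78, Zfp583 and Zfp667, none was DE while the values ran from -0.77 to -0.44, with a median of -0.55. Zfp251 was higher within WOS while its neighbour Znf7, at low counts, had the opposite sign. Neighbours that are similar copies can share reads, so their values may not be independent. Sharing of reads was not measured here.

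**Figure D5:**
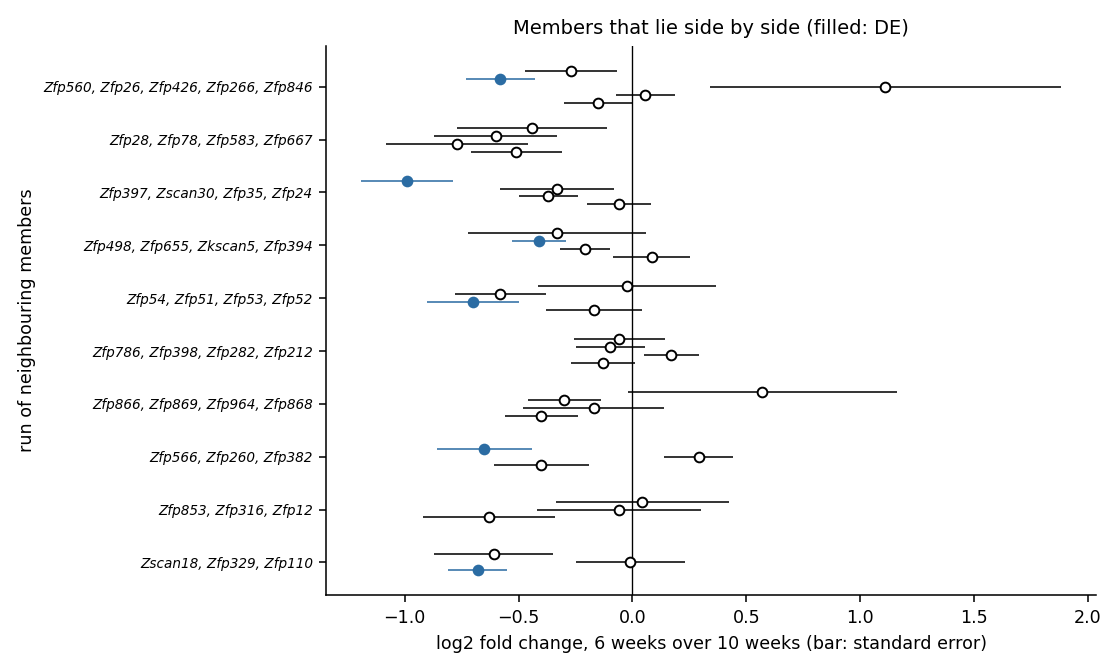
Points are the log2 fold changes (6 weeks over 10 weeks, bars are standard errors) of members in the 10 runs of 3 or more neighbouring members, with DE members filled in blue. Each run has at most 1 filled point, and the 4 members of the run from Zfp28 to Zfp667 all lie between -0.77 and -0.44.

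The partners of these proteins were looked at by lists. Of 24 genes of the KRAB silencing machinery (among them Trim28, Setdb1, the HP1 genes and the NuRD complex), 3 were DE and higher outside WOS and 0 within WOS, with a median log2 fold change of -0.048. The 3 were Fam208a at -0.48 (SE 0.13, adjusted p = 0.0254), Morc2 at -0.39 (SE 0.11, adjusted p = 0.035), of which the first is a subunit and the second a partner of the HUSH silencing complex, and Chd4 at -0.29 (SE 0.09, adjusted p = 0.0374), the NuRD remodeller. Of 12 BTB partners, Ncor1 (-0.36) and Sin3a (-0.31) were DE and higher outside WOS, 0 were higher within WOS and the median was -0.138. Among 72 C2H2 genes with other names, 12 were DE and higher outside WOS and 2 within WOS, with a median of -0.069. Of the 72, 43 had a log2 fold change below 0. The lean toward outside WOS was thus not particular to the numbered members. The largest was Hivep3, at 1245 ± 434 within WOS (SD, n = 6) and 3155 ± 708 outside WOS (SD, n = 7), a log2 fold change of -1.38. Klf6 (-0.54), Egr3 (-0.68), Ovol1 (-0.54), Sp1 (-0.37), Sp4 (-0.54), Klf11 (-0.46), Klf16 (-0.48), Prdm4 (-0.38), Plagl2 (-0.46), Bcl11b (-1.02) and Ikzf3 (-1.03) went the same way, and Gli3 (0.40) and Patz1 (0.69) were higher within WOS. Bcl11b and Ikzf3 were low, with means of 9.17 and 23.5 normalized counts within WOS and 18.7 and 48.7 outside WOS.

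A further 26 symbols with the same stems carry letters after the number and lie outside the rule. Of these, 2 were DE and higher outside WOS (7.69%, against 7.39% of all genes) and 1 higher within WOS (3.85%, against 8.71%). Their median was -0.127. Zfp36l1, a relative of Zfp36 in messenger RNA decay, was at 6704 ± 500 within WOS (SD, n = 6) and 12592 ± 1802 outside WOS (SD, n = 7), a log2 fold change of -0.90 (SE 0.11, adjusted p = 0.00031). Zfp280d was at -0.44 and Zbtb8os at 0.77.

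Marker RNA of several cell types differed between the ages beside these genes. In the whole table, 8.71% of genes were DE and higher within WOS and 7.39% higher outside WOS. Of 12 markers of proliferating cells 11 were DE and higher within WOS, and their mean log2 level was 7.45 to 8.53 within WOS and 4.55 to 6.93 outside WOS. Of 9 fibroblast markers 6 were higher within WOS, with levels of 11.3 to 12.17 and 9.64 to 10.92. Markers of mast cells (4 of 5, while the fifth, Kit, was higher outside WOS), adipocytes (3 of 7), red cells (2 of 2) and endothelium (1 of 6) were DE and higher within WOS. Of 5 lymphocyte markers Cd79b was DE and higher within WOS, at low counts, while 3 had values below 0 and the list's median was -0.303. None of the 8 macrophage markers was DE in limma, and their median was 0.071. Of 15 luminal markers Kit and Epcam, and of 11 basal markers Lgr5 and Cnn1, were higher outside WOS, while the keratins that define both layers were not DE. Of the markers in the table none was at 0 in all rats, but only 5 of 11 lymphocyte markers were listed. In bulk RNA, fewer cells of a type and less RNA per cell cannot be told apart, and the part of cell makeup in the members' values was not tested.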

How the data were processed

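RNA was measured in mammary epithelial cells of 13 rats. The authors' deposited table gives, per gene and rat, RSEM count estimates scaled per library and rounded to whole numbers, a unit taken here as a score and called normalized counts. Other columns hold the authors' EdgeR results on the ages: log2 fold change and log2 abundance, a likelihood ratio as a score, p-value and false discovery rate, and the p-value again as −log10, unsigned and signed. None of these deposited results was used. The submitters' processing notes name RSEM 1.2.22, edgeR, DESeq2 and the build rn5, while the paper names rn6 for its genome, so coordinates of members on the authors' build are not given.

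All 14790 genes were tested with limma (3.58.1, under R version 4.3.3) after taking log2(normalized count + 1), with a mean of at least 1, no covariate, two-sided p-values and Benjamini-Hochberg adjustment over all genes, since scaled and rounded values call for no count test. Members were counted afterwards, and no test was made over the list. The members and lists were chosen with earlier results of these data known. All DE members are named. Values by rat are given for the DE Zbtb, Zscan and Zkscan genes and, in each direction, for up to 8 DE Zfp or Znf genes of largest change with a mean of at least 50, and 18 well known members are named whatever their result. Abundant DE members were added to these in the text after their values were seen. The labels do not give the rats' litters or preparation days, and no replicate number is shared between the ages. Low normalized counts carry uneven precision, since 7 rats lack some of the whole numbers from 1 to 30, as scaling of a shallower library leaves them. These were rats 75 and 80 at 6 weeks and rats 72, 74, 78, 81 and 87 at 10 weeks, so the ages were not alike in this. Of the members, 267 of 272 were matched to RefSeq by symbol or synonym. No protein table was at hand, so finger counts and KRAB or SCAN stretches were not computed. The E2F-type motifs were planned and the ETS-type motif and the runs of neighbours were added after the data were seen. In the table, 4 member symbols (Zfp446, Zfp82, Zfp128 and Zfp617) are held by 2 records each, and 1 member, Zfp697, shares all its values with another gene. Each record was kept.

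The fit was repeated with 3 other scalings (library size, median-ratio, upper quartile), a pseudocount of 0.1, minimums of 10 in every rat or a mean of 50, limma-trend, sample quality weights, each rat left out, each set of rats alone, the first residual component as a term and 1 record per set of identical values. Tables and plots were made with matplotlib 3.10.9, pandas 2.3.3 and numpy 2.4.6 under Python 3.11.15.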

Additional observations from a re-analysis of the deposited data

Results flagged for a closer look

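Among 116 groups tested (the named members within each age), 9 had a lowest or highest rat set apart from the rest of its age by a gap that is large for the group's range. Chance flags about 1 in 20 groups. Within WOS, rat 80 was lowest for Zkscan1 (269, next 358) and Zbtb33 (251, next 486) and highest for Zfp872 (61, next 27). Rat 70 was lowest for Zbtb11 (953, next 1105) and rat 71 highest for Zfp295 (1795, next 1602). Outside WOS, rat 85 was lowest for Zfp609 (1946, next 2326) and Zfp592 (1609, next 1839). Rat 78 was highest for Zbtb16 (211, next 112) and rat 74 highest for Zfp655 (10343, next 8243). All values are normalized counts. Zbtb11, Zfp295 and Zfp592 had no overlap between the ages with these rats included.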

How the results depend on the processing

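The direction of the members' median, -0.147, held under every alternative, from -0.196 to -0.1. Library size scaling gave 20 members higher outside WOS (7.35%, against 5.22% of all genes) and 4 DE Zbtb genes. A mean of at least 50 gave 5 members higher within WOS (2.63%, against 10.3% of all genes). Sample quality weights gave 73 and 18 members in the 2 directions (26.8% and 6.62%, against 17.8% and 20.3% of all genes). With these weights 12, 3 and 76 genes were DE for Zbtb, for Zscan and Zkscan, and for Zfp and Znf. The 5 rats alone gave 0 for each of these counts, and the 8 rats alone gave 3 Zscan and Zkscan genes. With each rat left out, the counts ran from 15 to 40 (higher outside WOS), 5 to 9 (higher within WOS), 3 to 8 (Zbtb), 0 to 2 (Zscan and Zkscan) and 16 to 40 (Zfp and Znf). Fits with fewer rats have fewer samples, and the causes of the other shifts were not tested. None of the 42 DE members, which were called from these same rats, changed sign. Among members that were not DE, only the well known ones named above are listed in full here. Of these, the sign changed for Zkscan1 (median-ratio scaling -0.0056, 8 rats -0.0094, 5 rats -0.023, rats left out -0.034 to 0.10), Zbtb38 (median-ratio scaling -0.00016, weights -0.091, 8 rats -0.13, rats left out -0.07 to 0.06), Zbtb17 (5 rats -0.37, rats left out -0.021 to 0.30), Zbtb33 (weights 0.022, rats left out -0.14 to 0.10), Zfp148 (library size 0.0016, 5 rats 0.038), Zfp143 (5 rats 0.23), Zfp217 (5 rats 0.027), Zbtb1 (5 rats 0.10), Zfp335 (8 rats 0.064) and Zfp57 (8 rats 0.093). Other members that were not DE changed sign as well, such as Zscan30 (-0.33, 5 rats 0.60) and Zbtb40 (0.19, 8 rats -0.87). No paired analysis was possible because the ages share no replicate number. Of the 82 members under 50 normalized counts 5 were DE, and how far depth limits such calls was not tested.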
